A study of Mus musculus with 3 samples.

Results

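The miR-25, miR-32, miR-92 and miR-363 family is a group of microRNAs (miRNAs) that share 1 seed, the stretch of bases 2 to 8 with which a miRNA recognises messenger RNAs. The 10 forms described here were taken by name from the 1915 mature miRNAs counted in each library. They are mmu-miR-92a-3p, mmu-miR-92a-1-5p, mmu-miR-25-3p, mmu-miR-25-5p, mmu-miR-92b-3p, mmu-miR-92b-5p, mmu-miR-32-5p, mmu-miR-32-3p, mmu-miR-363-3p and mmu-miR-363-5p. All 10 forms were among the 648 miRNAs with a mean level of at least 1 RPM (a miRNA's reads over the summed miRNA reads of its library, times 1000000) over the libraries, and miR-363-5p passed only through its level at P1. The retinas came from C57BL/6 mice at postnatal day 1 (P1), P7 or P17, with no treatment named in the labels. Each of the 3 libraries pooled the retinas of 5 eyes, and there was 1 library per age. No difference between ages therefore has a replicate check, no p-value is given, and intervals are 95% exact intervals that cover counting error only. An age cannot be told apart from the way its library was prepared.

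A miRNA hairpin is cut into a 5p and a 3p strand. In each of these hairpins 1 strand carries the family seed and is loaded as the guide, whereas the opposite strand, the passenger, is mostly degraded. Several of the hairpins lie in polycistronic clusters. MiR-92a is made from the miR-17-92 cluster and from its X-linked paralog miR-106a-363, and miR-25 from the miR-106b-25 cluster. These clusters are best known for promoting proliferation in embryonic and tumour tissue under the control of MYC and E2F factors, and miR-92a also for restraining vessel growth in endothelial cells. The newborn mouse retina still holds dividing progenitors, which are gone from the maturing retina in the weeks that follow.

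The 5 guide strands are shown because the seed is what defines the family and the bases after it are what tells the loci apart. The sequences are the RefSeq mature forms on GRCm38.p6, written 5′ to 3′ with bases 2 to 8 in capitals.
miR-92a-3p: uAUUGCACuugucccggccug
miR-92b-3p: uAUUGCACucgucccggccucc
miR-25-3p: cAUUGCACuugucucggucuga
miR-32-5p: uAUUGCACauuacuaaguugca
miR-363-3p: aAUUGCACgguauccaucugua
Counting from 1 at the 5′ end, miR-92a-3p and miR-92b-3p were identical at 19 of 21 aligned bases and differed by U10C and G21C. MiR-92a-3p and miR-25-3p were identical at 18 of 21 bases and differed by U1C, C14U and C18U. The other pairs of guides were less alike, with miR-25-3p and miR-363-3p identical at only 9 of 22 bases. GC content ran from 31.8% in miR-32-5p to 63.6% in miR-92b-3p. Among the 1623 of 1915 listed names that had a sequence in the table, one more miRNA had the same seed, miR-367-3p, and it had 0 reads at each age. The names without a sequence were not examined for the seed.

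The passenger strands in the table share no seed. They are shown because their reads, unlike those of miR-92a-3p, belong to single hairpins. MiR-363-5p had no entry in the sequence table, so that 9 of the 10 forms were matched.
miR-92a-1-5p: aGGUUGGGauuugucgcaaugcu
miR-92a-2-5p: aGGUGGGGauugguggcauuac
miR-25-5p: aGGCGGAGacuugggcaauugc
miR-92b-5p: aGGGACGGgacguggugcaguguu
miR-32-3p: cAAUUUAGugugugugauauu

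MiR-92a-3p is encoded by a pair of hairpins on different chromosomes, shown here with their mature strands in capitals.
Mir92-1: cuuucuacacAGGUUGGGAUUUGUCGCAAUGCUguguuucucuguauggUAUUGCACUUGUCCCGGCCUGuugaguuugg
Mir92-2: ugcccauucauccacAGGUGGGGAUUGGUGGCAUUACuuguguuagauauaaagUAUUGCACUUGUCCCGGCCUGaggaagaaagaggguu
The 3p strands of these hairpins are the same sequence, so the deposited count of miR-92a-3p holds both. Mir92-1 is the plus-strand hairpin on chromosome 14, from 115044427 to 115044506, inside the exon of Mir17hg, a long non-coding RNA. Mir92-2 lies on chromosome X from 52741838 to 52741928 on the minus strand, outside any annotated gene body, 70 bases away from Mir363 at 52741693 to 52741767. The 5p strands differ at 5 of 22 bases and do tell the loci apart. At P1, P7 and P17 miR-92a-1-5p had 1279, 345 and 66 reads, against 1, 0 and 0 reads for miR-92a-2-5p. The X-linked hairpin gave 0.0781% of the summed 5p reads at P1 (interval 0.00198% to 0.435%). At P7 and P17 it had 0 reads, which by the limit of 3 reads allows a share of up to 0.87% and 4.55%, and by the exact interval up to 1.06% and 5.44%. These shares are of the 5p strands only, and from which hairpin the 3p reads came was not tested.

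The other hairpins each stand at a locus of their own. Mir25 is on chromosome 5 from 138165321 to 138165404 on the minus strand, within Mcm7, which encodes a subunit of the replicative helicase. It lay in an intron of 2 of the 3 annotated Mcm7 transcripts that span it and in an exon of the other. Mir32 is on chromosome 4 from 56895229 to 56895298 on the minus strand, in an intron of all 5 spanning transcripts of Tmem245. Mir92b is on chromosome 3 from 89227116 to 89227198 on the minus strand, outside any annotated gene body, with the end of Mtx1 28 bases away. Positions are from RefSeq and gene models from GENCODE M21, both on GRCm38, the build that mm10 names.

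Depth was even, at 11426320 miRNA reads (P1), 12759995 (P7) and 11659722 (P17), and 1 read was worth 0.0784 to 0.0875 RPM. Median-of-ratios size factors placed the P1 library apart (1.503, against 0.862 and 0.743), and the median miRNA changed by -1.004 on the log2 scale in the first step and by -0.06 in the second. Of the 5 retinal marker miRNAs, miR-182-5p, miR-183-5p, miR-96-5p, miR-124-3p and miR-9-5p, all were present at each age. Their summed level was 223656 RPM at P1, 432211 at P7 and 387928 at P17. MiR-9-5p was lower at P17 (74010.5 RPM, against 144259 at P1), and the other 4 were over 2-fold higher. MiR-92a and miR-25 are also abundant in red blood cells, so the red cell markers were examined beside the family. The 5 red cell miRNAs summed to 277 RPM at P1, 220 at P7 and 285 at P17. Most of these sums was miR-486a-5p and miR-486b-5p, which had equal counts, at 115, 103 and 125 RPM each. The sums may therefore hold the same reads under both names. None of the 5 was over 2-fold lower at P17 than at P1. MiR-144-3p and miR-144-5p were over 2-fold higher, at log2 changes of 1.97 and 1.29, and miR-451a had 45.5, 11.7 and 27.9 RPM. The summed level of the leukocyte list was 13.6, 17.7 and 35.8 RPM, and that of the endothelial miR-126a strands 1261, 3643 and 8530 RPM. In the leukocyte list miR-150-5p had 0.525 RPM at P1 and 17.8 at P17. The miR-142a strands differed less, with 6.91 and 8.49 RPM for miR-142a-3p and 5.95 and 9.01 for miR-142a-5p. MiR-223-3p had 0.175 and 0.600 RPM, a log2 change of 1.78 that rests on 2 and 7 reads. Retinal pigment epithelium miRNAs, miR-204-5p and miR-211-5p, summed to 15211, 7226 and 14334 RPM. The sum joins opposite courses, with miR-204-5p lower at P17 (9019 RPM, against 14661.5 at P1) and miR-211-5p higher (5315 against 550). Muscle miRNAs summed to 132, 90.0 and 240 RPM. Lens and cornea miRNAs summed to 103, 119 and 570 RPM, again with members that parted. There miR-184-3p was higher at P17 (569 RPM, against 101 at P1) and miR-205-5p lower (0.686 against 2.71). The liver miRNA miR-122-5p had 2.27 to 5.78 RPM. The part of any of these cell types in the family's levels was not tested.

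The family was lower at each later age. Its 5 guides together had 26976 RPM at P1, 10745 at P7 and 4347 at P17, or 2.70%, 1.07% and 0.435% of the miRNA reads. The sum was 2.51-fold lower at P7 than at P1 and 2.47-fold lower again at P17. The log2 changes were -1.33 (interval -1.34 to -1.32) and -1.31 (-1.32 to -1.29), together -2.63. RPM is a share of the miRNA reads, and against the other miRNAs the steps were unequal. Relative to the median miRNA the sum changed by -0.32 in the first step and by -1.25 in the second. With size factors or TMM factors, which set the typical miRNA equal between libraries, in place of the library total the change from P1 to P7 was -0.37 or -0.34, and that from P1 to P17 was -1.59 with both. In pooled retina, fewer cells that hold these miRNAs and less of them in each cell cannot be told apart.

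All 10 forms were over 2-fold lower at P17 than at P1, in a background where 51.2% of the 648 miRNAs were. Their median log2 change was -3.16, against -1.04 for all 648. From P1 to P7, 9 of the 10 were over 2-fold lower, against 50.4% of 647 miRNAs, and miR-32-5p was the exception. From P7 to P17, 5 of the 10 were over 2-fold lower, against 16.8% of the 648. With size factors the counts were 9 of 10 from P1 to P17 (27.6% of all), 6 in the step to P7 (15.1%) and 5 in the step after it (15.0%). The form no longer over 2-fold lower from P1 to P17 was miR-25-3p, and those no longer so in the step to P7 were miR-92a-3p, miR-25-3p and miR-32-3p. MiR-363-5p, which passed the abundance filter only through P1, could hardly have been other than lower, so that its part in these counts is no result. The plot of levels by age shows all 10 forms.

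**Figure D1:**
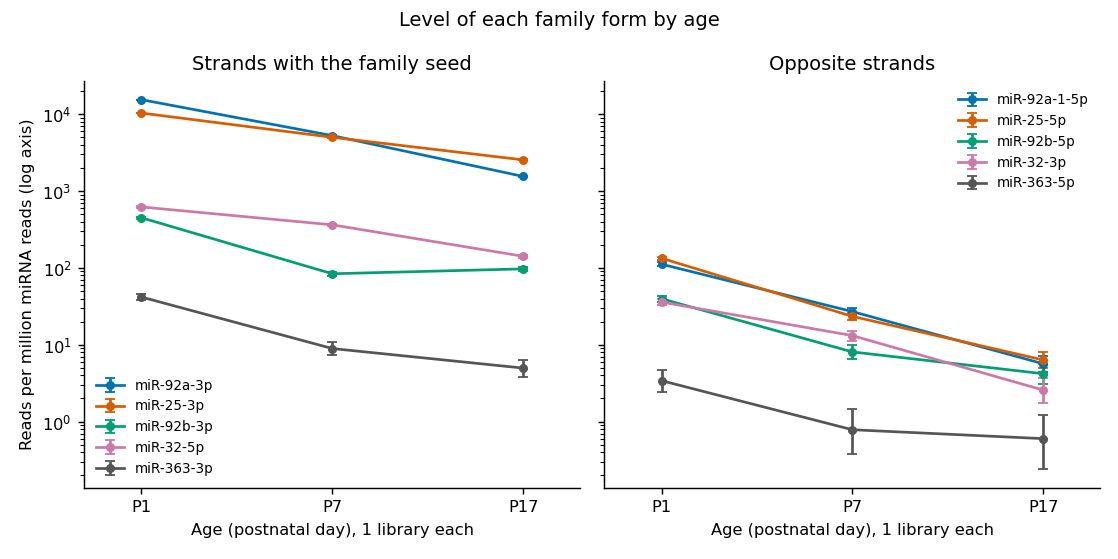
RPM (log axis) of the 5 strands with the family seed (left) and the 5 opposite strands (right) at P1, P7 and P17. Each point is 1 library, and bars are 95% exact binomial intervals of counting error. MiR-92a-3p and miR-25-3p stand far above the other forms, their lines cross between P7 and P17, and miR-92b-3p is the one form that is not lower at P17 than at P7.

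MiR-92a-3p was the most abundant form at P1, with 15489 RPM, and had 5274 RPM at P7 and 1553 RPM at P17. It was 2.94-fold lower at P7 than at P1 and 3.40-fold lower at P17 than at P7, in all 9.97-fold (interval 9.82 to 10.1). With size factors its log2 change was -0.59 in the first step, under 2-fold, and -2.27 from P1 to P17, and with TMM factors -0.57 and -2.27. Among all 1915 miRNAs its place by reads went from 16 to 24 and 52. Its log2 change of -3.32 from P1 to P17 had 8.64% of the 648 miRNAs below it. The passenger miR-92a-1-5p had 112 RPM (P1), 27.0 (P7) and 5.66 (P17), and was 19.8-fold lower at P17 than at P1 (15.4 to 25.7).

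MiR-25-3p had 10373 RPM at P1, 5014 at P7 and 2550 at P17. It changed less than miR-92a-3p, being 2.07-fold lower at P7 than at P1, 1.97-fold lower at P17 than at P7 and 4.07-fold lower in all (4.02 to 4.12). Its first step, a log2 change of -1.05, lay at the median of all miRNAs, with 47.7% of them below it, and came to only -0.09 with size factors and -0.06 with TMM factors. From P1 to P17 its log2 change was -2.02 with RPM and -0.98 with either of these factors, just under 2-fold. The passenger miR-25-5p behaved otherwise. Its levels were 134 RPM at P1, 23.4 at P7 and 6.35 at P17, 21.1-fold lower in all (16.7 to 27.0), the largest fold of the 10 forms, although its interval overlaps those of miR-92a-1-5p and miR-32-3p (9.64 to 21.0).

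MiR-32-5p, the guide from the Tmem245 intron, had 622 RPM at P1, 364 at P7 and 142 at P17. It was the guide with the smallest difference between P1 and P7, 1.71-fold (1.65 to 1.77), and was 2.57-fold lower at P17 than at P7. The direction of its first step depended on the scaling. The log2 change was -0.77 with RPM, -0.15 with a total that leaves out the most abundant miRNAs, and 0.19 and 0.21 with size factors and TMM factors. Its passenger miR-32-3p had 36.0, 13.2 and 2.57 RPM and was lower at each step.

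MiR-92b-3p differs from miR-92a-3p by so few bases, yet took another course. Its level was 450 RPM at P1, 84.0 at P7 and 97.3 at P17. It was 5.36-fold lower at P7 than at P1 (5.01 to 5.73), the largest first step among the guides, with an interval that overlaps that of miR-363-3p. With size factors and TMM factors the log2 change of this step was -1.46 and -1.44, against -2.42 with RPM. From P7 to P17 its log2 change was 0.21 (0.09 to 0.33), when each of the other 4 guides was lower. This difference turned with the scaling, from 0.30 with size factors to -0.03 with the total that leaves out the most abundant miRNAs. Its passenger miR-92b-5p had 39.7, 8.07 and 4.20 RPM at the same ages, and changed by -0.94 over that step (-1.46 to -0.44).

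MiR-363-3p, from the X chromosome, was the rarest guide, with 41.8 RPM at P1, 8.93 at P7 and 4.97 at P17, or 478, 114 and 58 reads. It was 4.68-fold lower at P7 than at P1 (3.81 to 5.80) and 1.80-fold lower at P17 than at P7 (1.30 to 2.51). The log2 change of the first step was -2.23 with RPM, -1.27 with size factors and -1.24 with TMM factors. MiR-363-5p, its passenger, had only 39, 10 and 7 reads. The difference of miR-363-5p between P7 and P17 was within counting error, at a log2 change of -0.38 (-2.01 to 1.16).

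The order of the forms by reads was stable at the top except for a single exchange. Small RNA libraries recover different miRNAs with different efficiency at the ligation steps, so that an order by reads within a library is not an order of molecules, but a change of that order between ages is free of the library total. At P1 and P7 the order ran miR-92a-3p, miR-25-3p, miR-32-5p, miR-92b-3p, and at P17 miR-25-3p came first. Per read of miR-92a-3p, miR-25-3p had 0.67 reads at P1 (0.665 to 0.675), 0.951 at P7 (0.940 to 0.961) and 1.64 at P17 (1.61 to 1.67). These intervals do not overlap. The log2 of this ratio changed by 0.51 in the first step and by 0.79 in the second. Among the rarer forms several neighbours were not separated by counting error. At P1 these were miR-363-3p, miR-92b-5p and miR-32-3p, and at P7 miR-92a-1-5p with miR-25-5p and miR-363-3p with miR-92b-5p. At P17 the run from miR-25-5p through miR-92a-1-5p and miR-363-3p to miR-92b-5p had no neighbours that differed beyond counting error.

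The composition of the guide reads shifted accordingly from miR-92a-3p to miR-25-3p. MiR-92a-3p made up 57.4% of the guide reads at P1 (57.2% to 57.6%), 49.1% at P7 (48.8% to 49.4%) and 35.7% at P17 (35.3% to 36.1%). MiR-25-3p made up 38.5%, 46.7% and 58.7%. MiR-32-5p went from 2.31% to 3.39% and 3.26%, and the last pair of values had overlapping intervals. MiR-92b-3p went from 1.67% to 0.782% and back up to 2.24%. MiR-363-3p went from 0.155% (0.141% to 0.170%) to 0.0831% (0.0686% to 0.0999%) and 0.114% (0.0869% to 0.148%). Its interval at P17 overlaps those at P1 and P7, which do not overlap each other. Summing the reads of miR-92a-3p and miR-92b-3p, which are near-identical and could exchange reads, gave 59.1%, 49.9% and 38.0%, the same course.

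**Figure D2:**
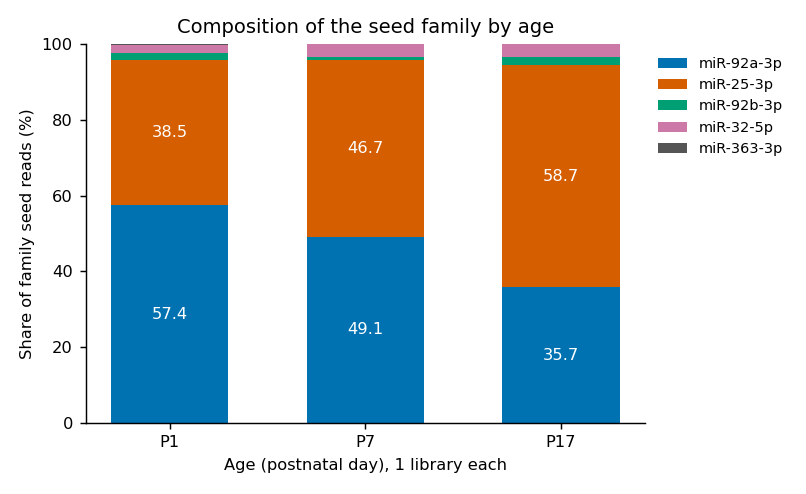
Share of the reads of the 5 guides (%) taken by each guide at P1, P7 and P17, with 1 library per age. MiR-92a-3p goes from 57.4% to 35.7% and miR-25-3p from 38.5% to 58.7%, while the other 3 guides together stay a thin band.

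MiR-92b-3p moved against both abundant guides in ratios that do not depend on the library total. Per read of miR-92a-3p its reads changed by -0.87 on the log2 scale up to P7 (-0.96 to -0.77) and by 1.98 after it (1.85 to 2.10). Per read of miR-25-3p the changes were -1.37 and 1.19. MiR-32-5p, by contrast, ended close to where it began against miR-25-3p, with 0.0600, 0.0726 and 0.0556 reads per read at P1, P7 and P17 and a log2 change of -0.11 from the first age to the last (-0.19 to -0.03). MiR-363-3p against miR-92a-3p showed no difference between P1 and P17 beyond counting error, with a log2 change of 0.25 (-0.17 to 0.64).

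**Figure D3:**
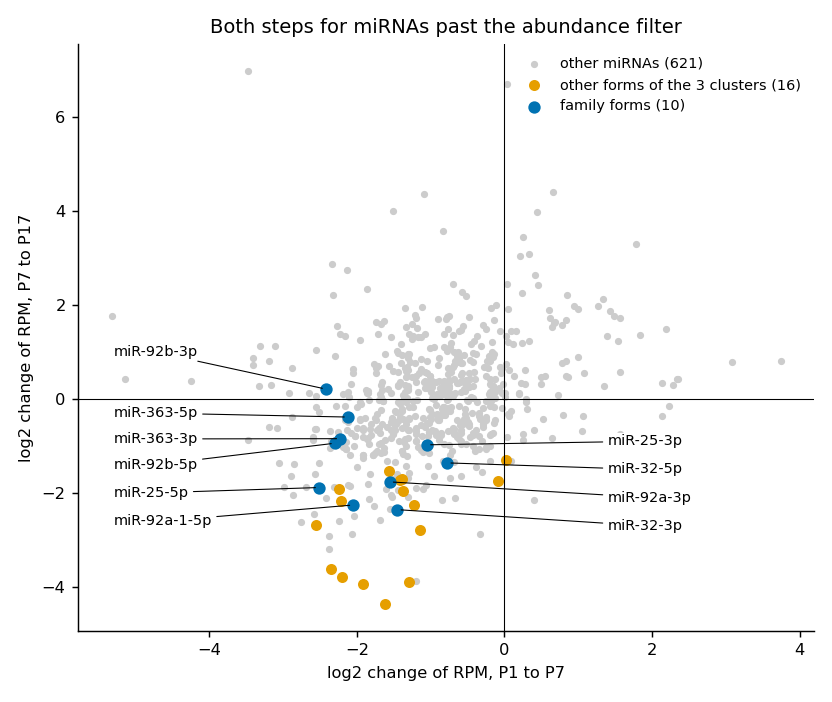
Log2 change of RPM, with the P1 to P7 step on the x axis and the P7 to P17 step on the y axis, for miRNAs past the abundance filter. Blue points are the 10 family forms, orange points other forms of the 3 clusters and grey points all others, each from 1 library per age. MiR-92b-3p lies above the zero line of the second step at 0.21, and the other 9 family forms lie below it.

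Both strands of a hairpin are cut from the same precursor and counted in the same library, so their ratio does not depend on the library total. The guide was the more abundant strand of each hairpin at each age. From P1 to P17 miR-25 changed most, although the interval of its change overlaps that of miR-32. It went from 77.5 guide reads per passenger read at P1 (73.7 to 81.6) to 214 at P7 (191 to 241) and 402 at P17 (320 to 512). MiR-92a went from 138 to 195 and 274, counting the 3p reads of both hairpins against miR-92a-1-5p. MiR-32 went from 17.3 to 27.6 and 55.1. MiR-92b had 11.3 and 10.4 at P1 and P7, with overlapping intervals, and 23.1 at P17 (17.4 to 31.5). MiR-363 had 12.3, 11.4 and 8.29, with intervals that overlap throughout.

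Over P1 to P17 the log2 of guide to passenger changed by 2.37 for miR-25 (2.04 to 2.73), 1.67 for miR-32 (1.13 to 2.26), 1.03 for miR-92b (0.59 to 1.497) and 0.99 for miR-92a (0.63 to 1.37). For miR-363 it was -0.56 (-1.83 to 0.91). Thus in 4 of the 5 hairpins the passenger was lower at P17 by more than the guide was, beyond counting error. The same ratio, of the major to the minor strand, was computed for 190 hairpins with both strands past the filter and reads at each age. Strands were paired by name, so hairpins with a locus number in the name of only 1 strand, miR-92a among them, were left out. MiR-25, miR-32, miR-92b and miR-363 are themselves among the 190. The ratio was higher at P17 than at P1 beyond counting error in 67 of the 190, or 35.3%, and lower in 54. Over these hairpins the median was 0.02, with 5% of them under -1.80 and 5% over 1.96. MiR-25 lay above that range, with 96.3% of the hairpins below it, and the other 4 hairpins of the family lay inside it. In the first step the ratio of miR-25 changed by 1.46 (1.28 to 1.65) and in the second by 0.91 (0.54 to 1.30), intervals that overlap. That of miR-92b changed by -0.12 (-0.45 to 0.22) and then by 1.15 (0.63 to 1.69), intervals that do not.

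**Figure D4:**
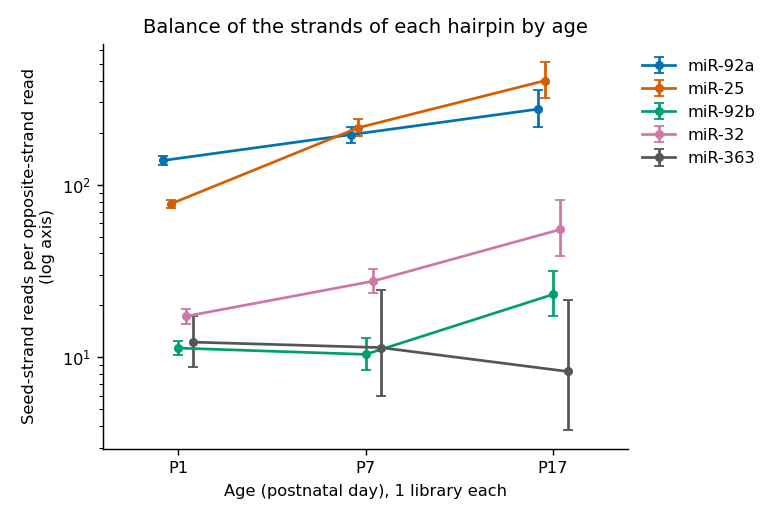
Reads of the strand with the family seed per read of the opposite strand (log axis) for the 5 hairpin names at P1, P7 and P17. Points are single libraries and bars 95% exact binomial intervals. MiR-25 goes from 77.5 to 402 and crosses miR-92a, and only miR-363 ends lower than it began, within wide intervals.

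The members of a cluster are cut from a shared primary transcript, and their mature forms can be compared within a library. The other 9 mature forms of the miR-17-92 cluster past the filter were all over 2-fold lower at P17 than at P1, beside 51.2% of all 648 miRNAs, with a median log2 change of -3.94 and a range of -5.99 to -1.27. In the miR-106b-25 cluster the other 4 forms changed by -5.20 to -3.09. MiR-92a-3p, at -3.32, thus lay between its cluster mates, and miR-25-3p, at -2.02, changed less than each of the 4 other forms of its cluster. In the miR-106a-363 cluster 4 of the 9 other names passed the filter, of which miR-19b-3p is shared with the miR-17-92 cluster. They changed by -5.99 to -1.27, against -3.07 for miR-363-3p.

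Against the miR-17 seed members of its own cluster miR-92a-3p stood higher at each later age, most of it after P7. Per read of miR-17-5p it had 6.73 reads at P1, 8.69 at P7 and 39.4 by P17. Per read of miR-20a-5p it had 4.35, 4.57 and 27.7. Against the miR-19 strands it stood lower instead, most of it before P7. Per read of miR-19a-3p it had 25.9 reads (P1), 9.34 (P7) and 9.18 (P17), and the change after P7 was within counting error (log2 -0.03, -0.10 to 0.05). Per read of miR-19b-3p it had 11.0, 3.68 and 2.66. Within a single cluster, therefore, miR-92a-3p moved up against some mates and down against others, at different ages.

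The passenger strands of the miR-17-92 cluster stayed closer together. MiR-92a-1-5p had 2.63 reads per read of miR-18a-3p at P1, 3 at P7 and 2.36 by P17, which do not differ beyond counting error. Per read of miR-17-3p it had 1.45, 0.915 and 0.623, and per read of miR-20a-3p 3.84, 2.46 and 1.69. The log2 changes of these last ratios from P1 to P17 were -1.22 (-1.70 to -0.74) and -1.18 (-1.80 to -0.54). The X-linked counterparts of these mates had few reads or none. MiR-106a-3p and miR-20b-3p had 0 reads at each age, and miR-18b-3p had 2, 0 and 0. Whether the counting divided reads between such paralogs was not tested.

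MiR-25-3p stood higher against each of its cluster mates at P17 than at P1. Per read of miR-93-5p it had 3.01 (P1), 3.57 (P7) and 27.2 (P17) reads, a log2 change of 2.93 after P7 (2.84 to 3.02). Per read of miR-106b-5p it had 8.66, 9.75 and 23.5, and per read of miR-106b-3p 6.19, 8.89 and 13.0. Its passenger miR-25-5p stood lower against miR-106b-3p, at 0.0799 (P1), 0.0416 (P7) and 0.0324 (P17). The log2 of this ratio changed by -0.94 up to P7 (-1.13 to -0.76). After P7 its change was within counting error (-0.36, -0.76 to 0.02). The strands of miR-25 thus moved in opposite directions against miR-106b-3p beyond counting error from P1 to P7, but not after it.

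MiR-363-3p did not differ against its X-linked mates miR-106a-5p and miR-20b-5p beyond counting error up to P7, and stood higher against both after it. Per read of miR-106a-5p it had 0.766 (P1), 0.75 (P7) and 5.80 (P17) reads. Per read of miR-20b-5p it had 1.67, 1.65 and 4.14. The log2 changes after P7 were 2.95 (1.88 to 4.14) and 1.33 (0.33 to 2.39), although miR-106a-5p and miR-20b-5p had only 10 and 14 reads at P17. Against miR-18b-5p, with 3 reads at P17, the change after P7 was 1.83 and within counting error (-0.0054 to 4.27). These X-linked mates have near-identical and more abundant paralogs in the miR-17-92 cluster, whose reads the counting could have divided. At P1 miR-106a-5p had 624 reads against 26291 for miR-17-5p, and miR-20b-5p had 286 against 40688 for miR-20a-5p. How far reads of the paralogs enter these ratios was not tested.

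**Figure D5:**
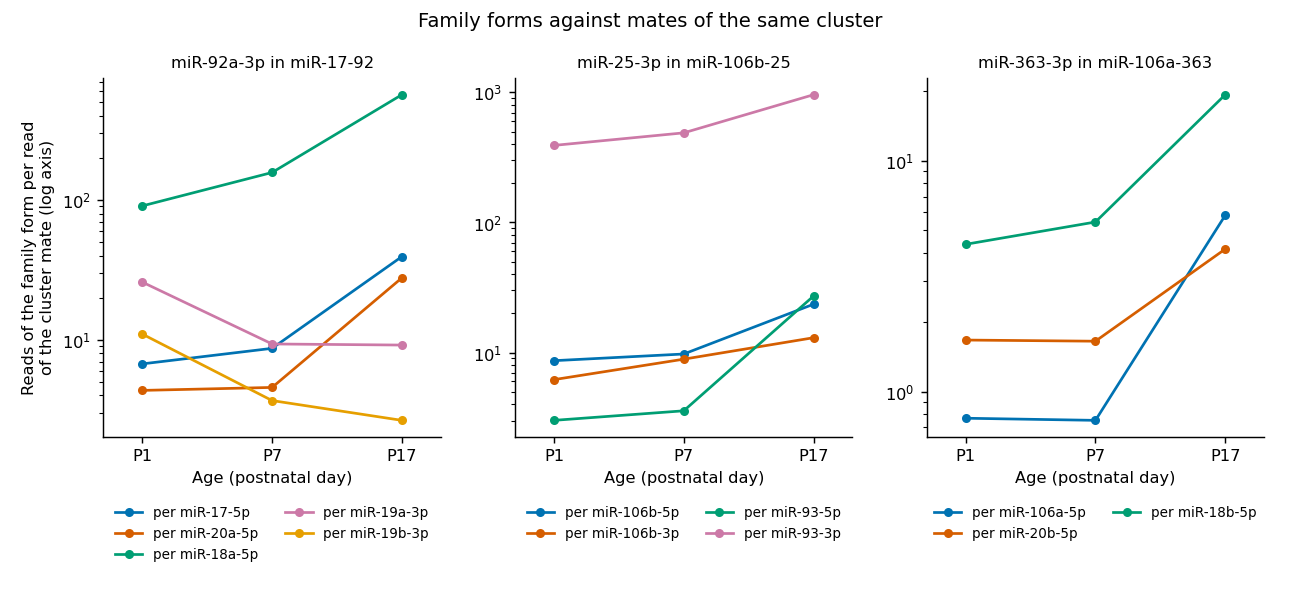
Reads of miR-92a-3p, miR-25-3p and miR-363-3p per read of each named mate of the same cluster (log axes) at P1, P7 and P17, 1 library per age. The ratios to miR-17-5p, miR-20a-5p, miR-93-5p and miR-106a-5p turn upward after P7, whereas the ratios of miR-92a-3p to miR-19a-3p and miR-19b-3p are highest at P1.

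The family was also set beside the miR-17 seed family (bases 2 to 8 AAAGUGC), which has members in the clusters of miR-92a, miR-25 and miR-363. Mir32 and Mir92b lie outside these clusters, and their guides are in the family sum. Reads of all miRNAs with that seed summed to 10584 (P1), 3699 (P7) and 299.8 (P17) RPM. The family of miR-92a had 2.55 reads per read of the miR-17 seed family at P1, 2.90 at P7 and 14.5 by P17. The log2 of this ratio changed by 0.19 up to P7 (0.17 to 0.21) and by 2.32 after it (2.27 to 2.37). Both seed families were lower at P17, and they parted after P7.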

How the data were processed

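Small RNA was sequenced from 3 pooled retina libraries, grouped by the age in the labels. The authors cleaned 50-nt reads of adaptors and low-quality reads and aligned them to mm10 with HISAT2 by their methods, while the processing notes name BWA and FastQC. The miRNA annotation and counting rule are not given in the sources used here. The authors deposited a count per mature miRNA, not normalized, and RPM values, which equal the count over the library's summed miRNA counts to within 0.0192 RPM. All 6 pairs of names with identical mature sequence had equal counts, and whether such reads were counted in full under each name is not given. The libraries held 11426320 to 12759995 miRNA reads.

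RPM was recomputed from the counts and compared as log2 ratios with no pseudocount. A library at 0 reads entered at 3 reads, and no fold was computed where both libraries had 3 or fewer. Ratios and shares have exact binomial intervals, and changes of a ratio have conditional exact intervals of the odds ratio. MiRNAs under a mean of 1 RPM were left out. Alternatives were size factors (644 miRNAs), TMM factors (edgeR 4.0.16), a library total that leaves out miRNAs among the 10 most abundant at any age (13 in all), pseudocounts, filters and fold criteria. The strand background, its count of hairpins beyond counting error and the single-step scalings were chosen after values were seen. The members and lists were chosen with earlier results of these data known. Named miRNAs are the members, miRNAs of the same seed, forms of the 3 clusters, cell type markers, the 3 miRNAs nearest to each guide in the log2 changes of both steps (mean of at least 10 RPM), and the neighbouring seed families. Sequences are RefSeq's on GRCm38.p6, and 1623 of 1915 names matched. The log2 change of a miRNA between libraries and its interval were tested on simulated data. The intervals of shares and of changes of a ratio were not. Python 3.11.15, scipy 1.17.1, pandas 2.3.3 and R 4.3.3 were used.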

Additional observations from a re-analysis of the deposited data

How the results depend on the processing

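The sum of the guides was lower at each later age under every scaling and pseudocount tried, and the amounts depended on the scaling. With size factors the log2 changes were -0.37 from P1 to P7, -1.22 from P7 to P17 and -1.59 from P1 to P17. TMM factors gave -0.34, -1.24 and -1.59, and the total without the most abundant miRNAs gave -0.70, -1.55 and -2.25, against -1.33, -1.31 and -2.63 with RPM. These scalings bring the median change of all miRNAs from P1 to P17 from -1.04 to 0.01, 0.01 and -0.66. Of the counts of forms over 2-fold lower, one moved by over 1.5 times, that from P7 to P17, which was 8 with the total without the most abundant miRNAs, where 25.3% of all miRNAs were over 2-fold lower, against 5 and 16.8% with RPM. Single forms changed direction in 3 of 110 values. MiR-32-5p from P1 to P7 was 0.19 with size factors and 0.21 with TMM factors, and miR-92b-3p from P7 to P17 was -0.034 with the total without the most abundant miRNAs. A further 57 values left the interval of counting error and 50 stayed in it. The single-step scalings were chosen after seeing the data. The share of miR-92a-3p, with miR-92b-3p added, was 59.1% at P1, 49.9% at P7 and 38.0% at P17. Depth limits miR-363-5p, with 7 reads at P17. No paired analysis was possible because only 1 library stands for each age, and for the same reason no replicate could be left out.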

Other observations

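Summed by seed over the miRNAs with a sequence in the table, which held 94.9% to 96.6% of the reads, the family ranked 10 of 1352 seed families at P1, 12 at P7 and 19 by P17. At P1 it stood below the seed of miR-183-5p (27700 RPM) and above that of miR-99a-5p and its relatives (19436 RPM). At P7 its neighbours were the seed of miR-7a-5p (20840 RPM) and that of miR-204-5p (7226 RPM), and at P17 those of miR-21a-5p (5148 RPM) and miR-191-5p (4188 RPM). Among the 45 seed families with a mean of at least 1000 RPM, its log2 change from P1 to P17 took place 3 counted from the lowest, and the median of the 45 was -0.78. The seed of miR-17-5p was the lowest, at -5.14.

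The miRNAs nearest to each guide in the log2 changes of both steps, among 422 with a mean of at least 10 RPM, differed between the guides, and the likeness rests on 3 libraries. MiR-296-3p was nearest to miR-92a-3p, at a distance of 0.08, and miR-20a-3p of the same cluster was among the nearest 3, at 0.15. MiR-148a-5p was nearest to miR-25-3p (0.05), and the abundant let-7i-5p was among the nearest 3 (0.17). MiR-125a-3p was nearest to miR-32-5p (0.07). The nearest to miR-92b-3p was miR-10b-5p (0.20), with 60.2 (P1), 10.3 (P7) and 10.7 (P17) RPM, and miR-10a-5p was among the nearest 3 (0.36). The nearest to miR-363-3p were miR-466b-3p, miR-466c-3p and miR-466p-3p, which had equal counts (0.03).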
